A study of Mus musculus with 8 samples.

Results

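The 10 genes described here encode the cargo and membrane proteins of the cytotoxic granule: the granzymes Gzma, Gzmb, Gzmk and Gzmm, the pore former Prf1, and Nkg7, Srgn, Ctsw, Cst7 and Lamp1. They were taken by symbol from a table of 13245 genes, and all 10 were listed and passed the filter of a mean of at least 1 CPM (reads scaled to the size of the library) that left 11503 genes for testing. The libraries came from CD8 T cells sorted from mouse lymph node as positive for Ly6C and CXCR3, a phenotype that the submitters call memory phenotype. One group was C57BL/6 wild type (B6) and the other CD103Tg, which per the series title overexpresses CD103, with 4 libraries each and no treatment or time course. The promoter of the transgene, the age and sex of the mice and any pooling of animals are not given in the sources used here. Labels also do not tie each replicate to an animal of its own. The p-values below therefore rest on spread among these libraries alone, which may be technical.

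Cytotoxic lymphocytes store granzymes, a family of serine proteases, together with perforin in secretory lysosomes that fuse with the membrane facing a bound target cell. Perforin opens the target membrane and granzymes then cleave proteins inside it, granzyme B being the member best known for triggering apoptosis. Granzymes are made as inactive precursors, activated by removal of a short N-terminal peptide by cathepsin C, and held in the granule on the proteoglycan serglycin (Srgn). Resting memory CD8 T cells of mice usually carry little granzyme B, and gain it on activation or with cytokines such as interleukin-15.

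The estimated reads over the listed genes ran from 50187279 to 56371476 per library. Itgae, which encodes CD103, was at 41.4, 51.4, 37.5 and 173.9 CPM in B6 replicates 1 to 4, and at 3469, 4692, 4169 and 5509 CPM in CD103Tg replicates 1 to 4. B6 replicate 4 thus stood above the other B6 libraries for the transgene's product, and the number of members called was the same without it, at 8. The summed level of 10 sort and CD8 T cell identity genes was 9820 to 10957 CPM in B6 and 10461 to 11669 CPM in CD103Tg, ranges that overlapped. Within that sum Il2rb, a receptor chain for interleukin-2 and interleukin-15, rose from 1389 ± 88.0 to 2262 ± 215 CPM (limma adjusted p = 5.89e-05), and Cd8a fell from 1191 ± 31.9 to 1006 ± 43.5 CPM (limma adjusted p = 0.00602). Cd3e, Cd8a, Cd8b1, Cxcr3 and Ly6c2 each averaged at least 462 CPM in both groups. Natural killer and innate-like, myeloid, B cell and cell cycle genes differed between the groups, and their levels stand beside the results below. These are bulk libraries, in which more cells carrying a transcript and more transcript per cell cannot be told apart.

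Granule genes were higher in CD103Tg, with the granzymes well ahead of the rest. At an adjusted p under 0.05 (limma with a mean-variance trend, Benjamini-Hochberg over all genes tested), 8 of the 10 members rose, 0 fell and 2 did not pass, where 17.4% of all tested genes rose, 13.8% fell and 31.2% changed in either direction. The median log2 fold change of the members was 0.66, against -0.0052 over all tested genes. In those same 8 members all 4 CD103Tg libraries lay above all 4 B6 libraries, as they did in 17.4% of tested genes. Of the members, the 4 granzymes rose at least 2-fold, as did 3.64% of tested genes, and 0 fell that far, as did 1.32%. The members were picked with earlier results of these data known, so the counts describe them and are no independent evidence.

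**Figure D1:**
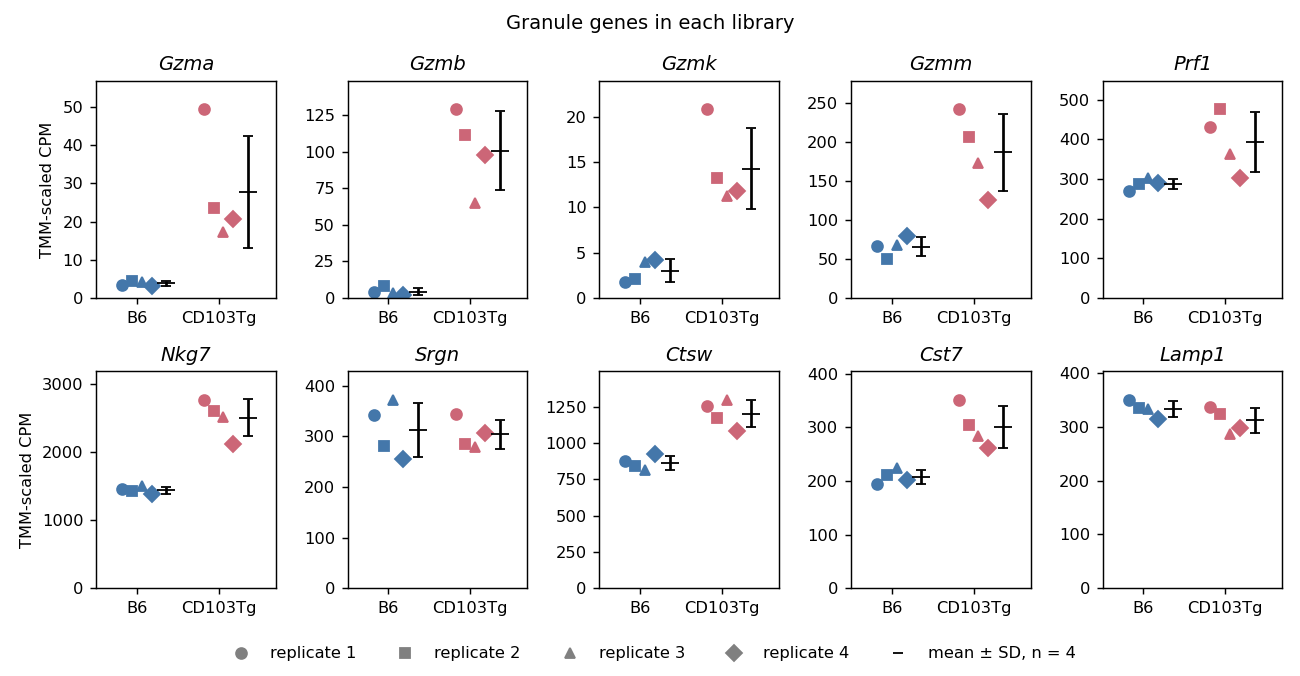
Level of each of the 10 granule genes in TMM-scaled CPM (vertical axes, linear from 0, one scale per gene) in the 4 B6 and 4 CD103Tg libraries, with the mean and SD of each group beside the points. The groups are apart for 8 genes, narrowly for Prf1, and overlap for Srgn and Lamp1.

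Gzmb, the granzyme B gene (GRCm38 chromosome 14, 56258838 to 56262260, minus strand, protein coding), showed the largest change among the members. Its promoter, with those of Gzma and Gzmk, is shown because these 3 granzymes changed most, together with that of Nkg7, the most abundant member. Each run is the 250 bases before the start site in RefSeq (GRCm38.p6), read 5′ to 3′ on the strand of the gene. Capitals mark matches on either strand to a Runx motif (TGTGGT), a T-box motif (GGTGTGA), an AP-1 motif (TGANTCA) or a STAT motif (TTCNNNGAA). The windows lie at chr14:56262335-56262584 for Gzmb, chr13:113100982-113101231 for Gzma, chr13:113180966-113181215 for Gzmk and chr7:43436888-43437137 for Nkg7.
Gzmb: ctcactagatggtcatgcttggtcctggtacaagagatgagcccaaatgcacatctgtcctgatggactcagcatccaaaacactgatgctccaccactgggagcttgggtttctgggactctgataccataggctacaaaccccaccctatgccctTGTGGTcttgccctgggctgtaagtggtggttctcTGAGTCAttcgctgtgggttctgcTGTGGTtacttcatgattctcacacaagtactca
Gzma: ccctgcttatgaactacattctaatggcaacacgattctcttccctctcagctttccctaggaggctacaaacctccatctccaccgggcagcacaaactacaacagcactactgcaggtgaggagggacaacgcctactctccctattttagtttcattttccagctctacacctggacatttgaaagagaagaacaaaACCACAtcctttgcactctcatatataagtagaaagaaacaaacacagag
Gzmk: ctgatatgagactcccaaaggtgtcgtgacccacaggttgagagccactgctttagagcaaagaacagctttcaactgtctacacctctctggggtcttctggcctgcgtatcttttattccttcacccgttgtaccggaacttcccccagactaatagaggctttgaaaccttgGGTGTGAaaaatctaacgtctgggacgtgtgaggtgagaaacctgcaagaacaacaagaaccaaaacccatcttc
Nkg7: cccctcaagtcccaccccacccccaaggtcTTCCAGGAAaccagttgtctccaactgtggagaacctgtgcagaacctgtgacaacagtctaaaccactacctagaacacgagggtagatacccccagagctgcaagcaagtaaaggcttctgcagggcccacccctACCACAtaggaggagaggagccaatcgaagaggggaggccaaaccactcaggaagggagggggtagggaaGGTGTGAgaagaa
Gzmb held the Runx letters at bases -93 and -34 and the AP-1 letters at -58, counted from the start site, while Gzma held 1 Runx match at -50. Gzmk held 1 T-box match at -75 and no Runx match, and Nkg7 held Runx, T-box and STAT matches at -83, -13 and -220. None of the matches in these 4 runs overlapped another. RefSeq windows of 300 bases (250 before to 50 after the start) existed for 9 of the 10 members, 11 windows in all. The Runx letters were in 8 of those 11 and in 16.8% of all 32851 such windows, and the T-box letters in 3 and in 3.98%. AP-1 was in 2 and 7.81%, and STAT in 3 and 8.3%. Over the 11812 windows of the listed genes alone, the shares were 13.2%, 3.4%, 4.81% and 6.9% in that order. The 8 with Runx letters included windows of Srgn and Lamp1, whose groups overlapped. A match describes letters and not binding, and the nearest transcript start in GENCODE M21 lay 74 bases downstream of the RefSeq start for Gzmb and 44 for Gzmk.

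Gzmb was at 3.74, 7.94, 3.09 and 2.34 CPM in B6 replicates 1 to 4, and at 128.9, 111.2, 64.6 and 97.9 CPM in CD103Tg replicates 1 to 4. The lowest CD103Tg library thus exceeded the highest B6 library, B6 replicate 2, by a wide margin. Means were 4.28 ± 2.51 and 101 ± 27.2 CPM (SD, n = 4 each), a ratio of 23.5. On the log2(CPM + 1) scale the fold change was 4.33 ± 0.28 (SE, limma adjusted p = 1.85e-06), ranking 4 from the top among all tested genes. Between 137 and 407 estimated reads stood behind each B6 value and between 3470 and 6337 behind each CD103Tg value. B6 replicate 2, the highest B6 library for Gzmb, was also the highest of B6 for the myeloid gene Lyz2, whose values are given with the other markers. Of 12 other genes of the granzyme and mast cell protease cluster around Gzmb, Gzmc was in the table and 11 were not analysed here. Gzmc, another cytotoxic granzyme, was near the lower end of detection, at 0.128, 0.215, 0.0383 and 0.29 CPM in B6 and 0.814, 0.628, 1.08 and 0.345 CPM in CD103Tg, and its mean was under the filter. Its 4 B6 libraries held 2 to 17 estimated reads and its CD103Tg libraries 18 to 58.

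Gzma, encoding the tryptase granzyme A (chromosome 13, 113093825 to 113100981, minus strand), was at 3.46, 4.52, 4.28 and 3.09 CPM in B6 and at 49.4, 23.4, 17.1 and 20.7 CPM in CD103Tg. The groups did not overlap, and CD103Tg replicate 1 stood above the other 3 CD103Tg libraries. Mean Gzma was 3.84 ± 0.674 CPM in B6 and 27.7 ± 14.7 CPM in CD103Tg, and the log2 fold change 2.46 ± 0.26 (limma adjusted p = 3.9e-05). Without CD103Tg replicate 1 that change was 2.15. Gzmk, the granzyme K gene, lies 70627 bases from Gzma on the same strand (113171608 to 113225908). By mean CPM per kb of exon it was the lowest of the 4 granzyme members in each group, although Gzmb was lower in B6 replicates 3 and 4. Gzmk was at 1.72, 2.13, 3.97 and 4.17 CPM in B6 and 20.8, 13.2, 11.2 and 11.8 CPM in CD103Tg. Again the groups were apart, with CD103Tg replicate 1 highest. The log2 fold change of Gzmk was 1.95 ± 0.24 (adjusted p = 0.000104, limma), from 3 ± 1.25 to 14.3 ± 4.44 CPM. With a pseudocount of 5 in place of 1, the log2 fold changes of Gzmb, Gzma and Gzmk fell to 3.50, 1.80 and 1.26, all still called, since the pseudocount shrinks changes of low genes.

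Gzmm encodes granzyme M, a protease with a preference for methionine and leucine, and lies on chromosome 10 (79689020 to 79695261, plus strand). It stood at 66.2, 49.5, 67.5 and 79.9 CPM in B6 and at 242, 206, 173.4 and 126 CPM in CD103Tg. B6 replicate 4 was the highest B6 library and CD103Tg replicate 4 the lowest CD103Tg library, still apart. Means were 65.8 ± 12.5 and 187 ± 49.3 CPM, with a log2 fold change of 1.47 ± 0.18 (limma adjusted p = 0.000128). Gzmm was already well expressed in B6, whereas the other 3 granzymes were each below 8 CPM there.

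The makeup of the granzyme transcripts differed between the groups. Levels of different genes are compared as CPM per kb of exon (the union of GENCODE M21 exons). Summed over the 4 genes, that level was 52.2, 45.2, 55.1 and 62.0 CPM per kb in B6 replicates 1 to 4 and 318, 250.2, 188 and 183 CPM per kb in CD103Tg. Every CD103Tg library exceeded every B6 library. Gzmm made up 82.8% ± 5.87 of the sum in B6 (SD, n = 4) and 54.3% ± 6.74 in CD103Tg. The Gzmb share was 4.98%, 12.2%, 3.90% and 2.63% in B6 and 28.2%, 31.0%, 23.9% and 37.3% in CD103Tg, again without overlap. Gzma took 4.96% to 9.95% in B6 and 9.06% to 15.4% in CD103Tg, and Gzmk 2.37% to 5.19% and 3.79% to 4.71%, both with overlap. No test was run on these shares, which combine the members.

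**Figure D2:**
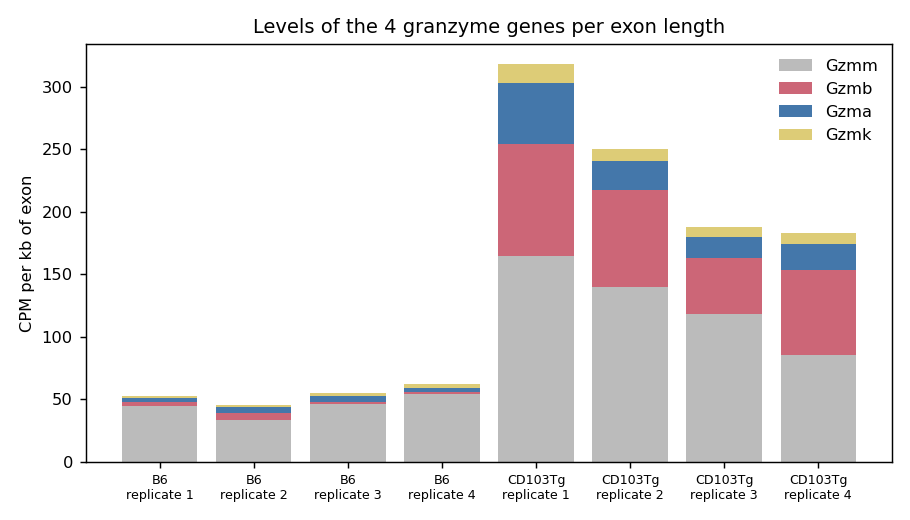
Stacked bars of the 4 granzyme genes in each library, in CPM per kb of exon (linear axis from 0). Gzmm fills most of each B6 bar, of 45.2 to 62.0 in height, while Gzmb takes 23.9% to 37.3% of the CD103Tg bars, of 183 to 318 in height.

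Differences in response between these genes were tested on the log2 ratio of 2 genes within a library, for the 10 pairs of the 4 granzymes and Prf1. An exact two-sided permutation test over 70 assignments of libraries was used, which cannot give a p below 0.0286, or 0.0408 adjusted over the pairs as they fell. The 7 pairs at that value were Gzmb over each of Gzma, Gzmk, Gzmm and Prf1, and each of Gzma, Gzmk and Gzmm over Prf1. Gzmb gained 1.87 ± 0.31 on Gzma (SE of the difference, log2 scale), 2.38 ± 0.51 on Gzmk, 2.86 ± 0.50 on Gzmm and 3.90 ± 0.37 on Prf1. The log2 ratio of Gzmb to Gzma was -0.37 to 0.69 in B6 and 1.37 to 2.20 in CD103Tg. Gzma, Gzmk and Gzmm gained 2.03 ± 0.30, 1.52 ± 0.27 and 1.04 ± 0.17 on Prf1. The remaining pairs did not pass: Gzma over Gzmm differed by 0.99 ± 0.33 (exact permutation, adjusted p = 0.0714), Gzmk over Gzmm by 0.48 ± 0.23 (0.0952) and Gzma over Gzmk by 0.51 ± 0.30 (0.2). Without CD103Tg replicate 1, 2 or 4 none of the 10 passed. Of the 7 pairs, Gzmb over Gzmk and Gzmb over Gzmm were then at 0.0816 (exact permutation, adjusted p) and the others at 0.0571. Fewer libraries leave fewer assignments, but with 1 left out of either group the smallest possible p of this permutation test stays at 0.0286. With any 1 of the B6 libraries left out, 7 or 8 pairs passed. The lowest adjusted p depends on how many pairs share the smallest p. In the fits without CD103Tg replicate 1, 2 or 4, Gzmb over Gzmk and Gzmb over Gzmm rose above the smallest p. The others of the 7 stayed at it, and missed the threshold because fewer pairs then shared it. In each of the fits without CD103Tg replicate 1, 2 or 4 all 7 differences stayed positive, the lowest being 0.95 for Gzmm over Prf1 without CD103Tg replicate 1. Without CD103Tg replicate 3, Gzmb over Gzmk did not pass either (exact permutation, adjusted p = 0.0714). Each of the 3 pairs that missed the threshold passed under some alternative. Gzma over Gzmm passed with a pseudocount of 0.1 (1.22, exact permutation, adjusted p = 0.0317) and without B6 replicate 2 (adjusted p = 0.0357), and was at 0.38 with a pseudocount of 5. Gzmk over Gzmm passed with a pseudocount of 0.1 (0.78, 0.0317) and without B6 replicate 3 (0.58, 0.0357), and turned to -0.16 with a pseudocount of 5. Gzma over Gzmk passed with a pseudocount of 5 (0.54, 0.0357) and was at 0.29 without B6 replicate 4. With that pseudocount Gzmk over Prf1, still called, was at 0.83 in place of 1.52.

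Prf1 encodes perforin (chromosome 10, 61297833 to 61304680, plus strand). Its level was 269.5, 287.3, 301.5 and 290 CPM in B6 and 431.9, 475.8, 363.5 and 301.7 CPM in CD103Tg. CD103Tg replicate 4 was level with the highest B6 library, B6 replicate 3, and the other 3 CD103Tg libraries were clearly above. Mean Prf1 was 287 ± 13.2 CPM in B6 against 393 ± 76.5 CPM in the transgenic group, and its log2 fold change was 0.43 ± 0.12 (limma adjusted p = 0.0155). It was the smallest and least certain of the 8 rises, with an adjusted p of up to 0.0455 when 1 library was left out.

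Nkg7, a membrane protein of cytotoxic granules that is needed for efficient granule release (chromosome 7, 43437073 to 43438249, plus strand), was the most abundant member per length in each group. It stood at 1454, 1428, 1503 and 1379 CPM in B6 and at 2766, 2595, 2515 and 2123 CPM in CD103Tg. The B6 libraries lay within a narrow band and every CD103Tg library was well above it. The log2 fold change was 0.79 ± 0.08 (limma adjusted p = 3.52e-05). Ctsw encodes cathepsin W, a papain-like cysteine protease largely restricted to cytotoxic lymphocytes (chromosome 19, 5465043 to 5468507, minus strand). Ctsw was at 878, 839, 812 and 925 CPM in B6 and 1257, 1171, 1297 and 1082 CPM in CD103Tg, without overlap, a rise of 0.47 ± 0.07 (adjusted p = 0.00042, limma). The kit does not mark strand, and Ctsw overlaps Fibp on the opposite strand, which was at 41.3 and 37.4 CPM on average and did not pass. Cst7 encodes cystatin F, an endolysosomal inhibitor of cysteine cathepsins, cathepsin C among them (chromosome 2, 150570415 to 150578944, plus strand). Cst7 was at 194.4, 210.4, 224.9 and 201.8 CPM in B6 and 351, 305, 284 and 261 CPM in CD103Tg, again apart, a rise of 0.52 ± 0.08 (limma adjusted p = 0.000789).

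Srgn and Lamp1 were the members that did not pass. Srgn, the serglycin core protein on which granzymes and perforin are packed (chromosome 10, 62493833 to 62527451, minus strand), was at 341.9, 280.4, 372.4 and 255.2 CPM in B6. In CD103Tg it was at 343.9, 285.8, 279.4 and 307.4 CPM, inside the B6 range, with a log2 fold change of -0.03 ± 0.11 (limma adjusted p = 0.879). Its sign turned positive when B6 replicate 1 or 3 or CD103Tg replicate 2 or 3 was left out, so no direction is given for it. Lamp1, a lysosomal membrane glycoprotein that reaches the cell surface as CD107a when granules are released (chromosome 8, 13159161 to 13175338, plus strand), was at 350.1, 334.4, 332.2 and 315.2 CPM in B6. Its CD103Tg values of 336.8, 324.3, 286.9 and 298.3 CPM overlapped them, and the log2 fold change was -0.10 ± 0.06 (adjusted p = 0.255, limma).

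Per kb of exon, the order in B6 was Nkg7 at 1577 ± 57.0, Ctsw at 458 ± 26.2, Cst7 at 211 ± 13.3, Srgn at 142 ± 24.6, Lamp1 at 124 ± 5.34, Prf1 at 111 ± 5.12, Gzmm at 44.7 ± 8.47, Gzma at 3.82 ± 0.67, Gzmb at 2.98 ± 1.75 and Gzmk at 2.16 ± 0.901 CPM per kb (SD, n = 4). Neighbours in that order had ranges apart except Srgn with Lamp1, Gzma with Gzmb and Gzmb with Gzmk. In CD103Tg, Nkg7, Ctsw and Cst7 kept the first places with ranges apart. Prf1 (152 ± 29.6 CPM per kb), Srgn (138 ± 13.2), Gzmm (127 ± 33.5) and Lamp1 (116 ± 8.59) followed with ranges that overlapped from each to the next. Gzmb came next at 70.1 ± 18.9 CPM per kb, its range overlapping that of Gzma at 27.5 ± 14.6, and Gzmk was last at 10.3 ± 3.19.

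Among the CD103Tg libraries, replicate 1 was the highest in 6 of the 8 genes that rose, and replicate 4 was the lowest in 5 and replicate 3 in the other 3. Srgn and Lamp1, which did not pass, were also highest in replicate 1, so that place was not particular to the genes that rose. Both were lowest in replicate 3. These counts are a description with no test, and they were not set against the same counts over all genes. In B6 no library took more than 3 of the 8 highest places. The spread was widest for Gzma in CD103Tg (coefficient of variation 53.1%) and for Gzmb in B6 (58.6%). Nkg7 varied by 3.62% in B6 and 10.9% in CD103Tg. Itgae ran otherwise: it was lowest in CD103Tg replicate 1 and highest in replicate 4. With 4 libraries a group, no correlation was computed.

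**Figure D3:**
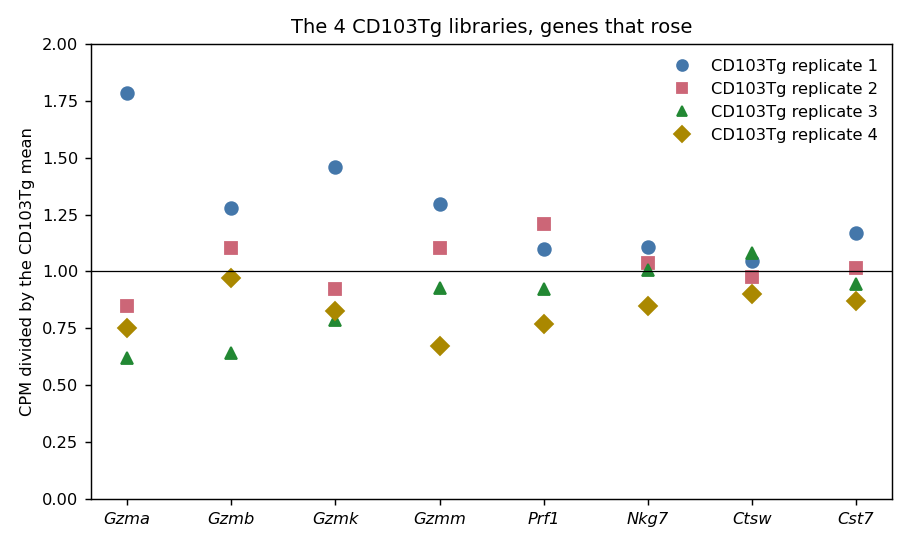
CPM of the 8 genes that rose in each CD103Tg library, divided by the mean of the 4 (linear axis from 0, line at the mean). Replicate 1 is the highest point for 6 genes and replicate 4 the lowest for 5.

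Markers of other cells and of the cell cycle also differed between the groups, some higher and some lower in CD103Tg. The natural killer and innate-like genes in the table, 10 of 16 listed once Eomes was set aside, summed to 56.4 to 83.4 CPM in B6. In CD103Tg replicates 1 to 4 they summed to 289, 238, 225 and 154 CPM. Gzmm, Nkg7 and Cst7 fell in that order too, whereas Gzma, Gzmb, Gzmk, Prf1 and Ctsw, which also rose, did not. Most of the natural killer and innate-like sum was Klrk1, encoding the receptor NKG2D, which CD8 T cells also express. Klrk1 averaged 38.7 ± 12.6 CPM in B6 and 168 ± 47.7 CPM in the transgenic group. Ncr1, the defining natural killer marker NKp46, was at 0.345 to 0.66 CPM in B6 and 0.183 to 0.613 CPM in CD103Tg, near the limit of detection and no higher in CD103Tg. Klrb1c was at 3.55 ± 0.49 and 6.97 ± 1.57 CPM, and Tyrobp at 2.13 ± 1.03 and 4.56 ± 1.77 CPM. The gamma delta chain gene Tcrg-C1 was at 4.10 ± 1.08 and 23.4 ± 8.93 CPM. Trdc, the delta chain gene of the same list, was at 10.8 ± 2.52 and 13.0 ± 2.07 CPM and did not pass (limma adjusted p = 0.236). Of 9 tested genes of the natural killer and innate-like list, Eomes included, 5 rose and 0 fell. Those that rose were Klrk1, Klrb1c, Tyrobp, Tcrg-C1 and Eomes, while Trdc, Fcer1g, Itga2 and Cd244a did not pass. Of 19 myeloid, mast cell and granulocyte markers, 12 were in the table and summed to 149 to 218 CPM in B6 and 235 to 336 CPM in CD103Tg. Most of that sum came from Bst2 (93.1 ± 7.63 and 149.6 ± 20.6 CPM) and Cst3 (60.3 ± 6.13 and 74.0 ± 6.49 CPM), which many cell types express. Of the 8 tested, 4 rose and 0 fell, where 17.4% and 13.8% of all tested genes did. Those that rose were Bst2, Cst3 and, at low levels, Cd68 and Siglech. Cd68 averaged 1.32 ± 0.414 CPM in B6 and 3.70 ± 1.38 CPM in CD103Tg, and Siglech 0.217 ± 0.161 and 1.97 ± 1.12 CPM. Siglech, Flt3 and S100a9 were each at 0 in 1 B6 library, and S100a8 in 1 CD103Tg library. Lyz2, the lysozyme gene, was at 10.7, 55.0, 8.74 and 2.42 CPM in B6 replicates 1 to 4 and at 63.9, 78.3, 21.7 and 9.42 CPM in CD103Tg. Of 8 B cell markers 7 were listed, summing to 794 to 887 CPM in B6 and 388 to 549 CPM in CD103Tg, most of it Ighm. Of 4 CD4 T cell markers, Zbtb7b and Cd40lg were listed and summed to under 2 CPM in every library, and Cd4 and Foxp3 were not analysed here. The 12 cell cycle genes summed to 355 to 438 CPM in B6 and 798 to 1203 CPM in CD103Tg, highest in CD103Tg replicate 4, and all 12 rose. The part of these other genes in the granule results was not tested.

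Beyond the members, lists were examined of genes that process, package, move and restrain granule contents, and of transcription factors reported to act on granzyme and perforin genes. Of 133 such genes 123 were tested, of which 44 rose (35.8%) and 17 fell (13.8%), where 17.4% and 13.8% of all tested genes did. Their median log2 fold change was 0.09. No list was compared with others by a set test.

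Of the steps that dock and fuse granules with the cell membrane, 9 of 24 tested genes rose and 1 fell, with a median log2 fold change of 0.09. Stx11, a syntaxin needed for granule release, was at 5.37, 6.04, 5.85 and 4.40 CPM in B6 and at 22.9, 18.6, 17.4 and 16.0 CPM in CD103Tg. The groups were far apart, and the change was 1.62 ± 0.13 (SE, log2 scale). Rab27a, the small GTPase that tethers granules, rose by 0.29 ± 0.06 and Unc13d (Munc13-4), which primes them, by 0.35 ± 0.05. Stxbp2 (Munc18-2), the partner of syntaxin 11, did not pass, at 130 ± 11.6 and 138 ± 8.54 CPM (limma adjusted p = 0.364). Sytl3, a synaptotagmin-like effector, rose by 0.64 ± 0.10, and Syt11 fell by 0.61 on the log2 scale (SE 0.09). Rab7, of late endosomes, was the most abundant gene of this list that did not pass, at 303 ± 19.5 and 306 ± 11.4 CPM.

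Genes of granule biogenesis and sorting split: 7 of 22 rose and 3 fell (median 0.07). Lyst, whose loss gives the giant granules of Chediak-Higashi syndrome, fell by 0.34 on the log2 scale (SE 0.10, limma adjusted p = 0.02). Dtnbp1 (dysbindin) and Hps6, of the complexes that build lysosome-related organelles, rose by 0.60 ± 0.07 and 0.39 ± 0.07. Rab32, a GTPase of the same pathway, fell by 0.49 (SE 0.08). M6pr, the mannose 6-phosphate receptor, which carries granzymes towards the granule, did not pass, at 285 ± 13.8 and 270 ± 12.2 CPM. Among 23 tested genes of the lysosome 9 rose and 3 fell (median 0.13). Grn, encoding progranulin, rose by 1.35 ± 0.09 (25.2 ± 2.55 against 65.8 ± 6.06 CPM), and the cholesterol transporter gene Npc1 rose by 0.60 ± 0.07. Lipa, the acid lipase gene, fell by 0.59 (SE 0.06), and Laptm5 did not pass (2487 ± 210 and 2625 ± 264 CPM).

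Among granzyme processing enzymes, Ctsc, the cathepsin that activates granzymes, was at 202, 254, 231 and 191 CPM in B6 and 213, 237, 208 and 228 CPM in CD103Tg. The groups overlapped fully, with a log2 fold change of 0.02 ± 0.09 (limma adjusted p = 0.877). Ctsh, a second aminopeptidase able to act on progranzyme B, rose by 1.14 ± 0.17 from a low level of 0.754 ± 0.333 to 2.85 ± 0.53 CPM. Ctsl, the cathepsin L gene, went the other way, by -1.42 ± 0.13 on the log2 scale, with 12.6 ± 1.96 CPM in B6, 4.09 ± 0.64 CPM in CD103Tg and no overlap between groups. In all, 3 of 12 cathepsin and cystatin genes rose, 1 fell and 8 did not pass (median 0.14), the third rise being Cst3 (0.29 ± 0.08) and the most abundant gene not passing Ctsa.

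Of 5 tested serpin genes, which encode protease inhibitors, 4 rose and 0 fell, where 17.4% and 13.8% of all tested genes did. Their median log2 fold change was 0.78. Serpina3g was at 13.4, 14.6, 13.5 and 21.7 CPM in B6 and 187, 174, 182 and 124 CPM in CD103Tg, a log2 fold change of 3.33 ± 0.16. Serpinb9, the intracellular inhibitor of granzyme B, rose by 0.87 ± 0.08 (59.7 ± 5.6 against 110 ± 9.59 CPM). Serpinb6b rose by 0.78 ± 0.10, and Serpinb6a did not pass (20.0 ± 3.82 and 16.7 ± 3.08 CPM).

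Glycosaminoglycan synthesis genes, which act on cores such as serglycin, moved both ways: 5 of 16 rose and 3 fell (median -0.03). Chst15, a sulfotransferase that makes highly sulfated chondroitin sulfate, went from 41.4 ± 4.06 to 11.0 ± 4.31 CPM (log2 fold change -1.88 ± 0.21). Ext1, of heparan sulfate synthesis, went from 18.6 ± 1.33 to 7.94 ± 1.55 CPM (-1.15 ± 0.12). Chsy1, a chondroitin synthase, rose by 0.69 ± 0.08, and Ext2 did not pass (143 ± 2.13 and 138 ± 8.16 CPM).

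Among 21 transcription factor genes reported to act on granzyme or perforin genes, 7 rose, 6 fell and 8 did not pass (median -0.10). Eomes and Tbx21 encode the T-box factors of cytotoxic cells. Eomes was at 163, 153, 182 and 159 CPM in B6 and at 376, 347, 356 and 303 CPM in CD103Tg (1.07 ± 0.08, log2). Tbx21 was at 159, 175, 155 and 181 CPM and at 284, 279, 247 and 223 CPM (0.62 ± 0.08). Both were apart between groups and lowest, within CD103Tg, in replicate 4. Id2, a regulator of effector differentiation, rose by 2.39 ± 0.15 and Tcf7, a factor of naive and stem-like cells, fell by 0.70 (SE 0.07). Runx3, which acts on Prf1 and Gzmb in CD8 T cells, did not pass at 167 ± 11.1 and 180 ± 17.6 CPM (limma adjusted p = 0.319), nor did Stat4 (408 ± 13.2 and 416 ± 27.3 CPM). Runx1 went from 28.4 ± 4.39 to 16.6 ± 1.03 CPM, a fall of 0.73 on the log2 scale (SE 0.11, limma adjusted p = 0.000478). Of listed genes for the AP-1 and STAT motifs, Batf rose by 0.31 ± 0.07 and Stat5b fell by 0.28 (SE 0.06). Jun and Stat5a did not pass. Tbx21, Runx3, Runx1, Batf, Jun, Stat5a and Stat5b are named for their motifs, outside the rule for named genes.

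**Figure D4:**
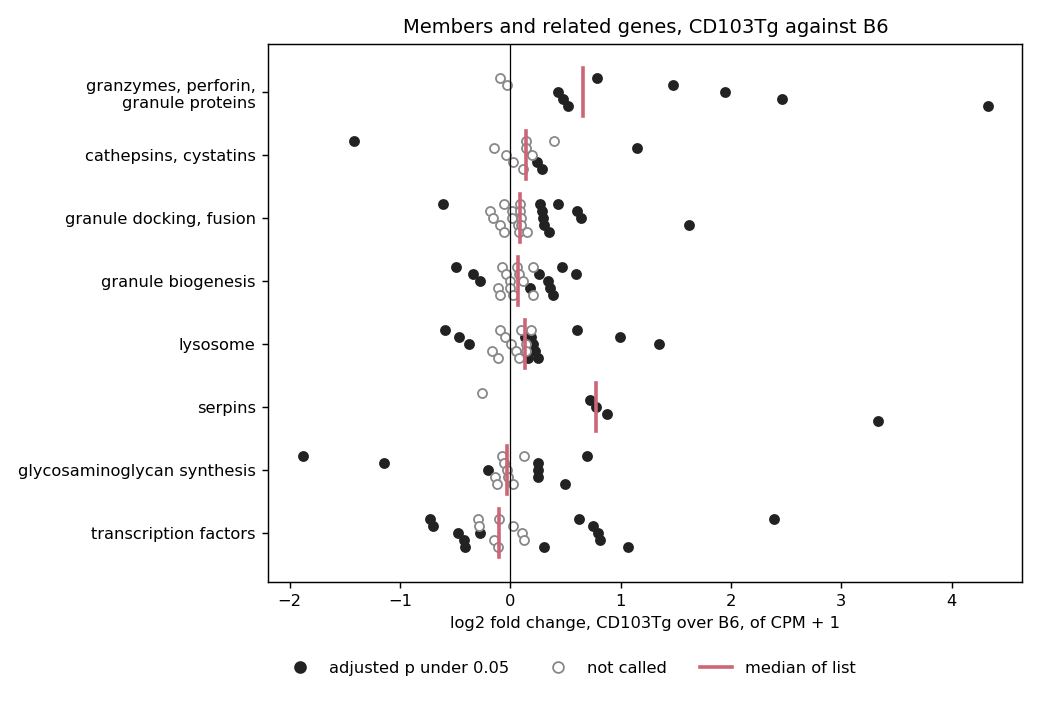
Log2 fold change of CPM + 1, CD103Tg over B6, of the 10 members and of the tested genes of 7 related lists (horizontal axis, one point a gene, rows staggered for legibility). Filled points passed at an adjusted p under 0.05, open points did not, and bars mark the list medians. Most genes of the docking, biogenesis and lysosome lists lie near 0, with medians of 0.07 to 0.13, while the median of the members is 0.66.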

How the data were processed

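Libraries were made from total RNA with SMART-Seq v4 and Nextera XT kits, per the labels' protocols, a chemistry that does not mark strand. RSEM, STAR 2.7.0f, cutadapt 1.18 and bcl2fastq 2.17 appear in the submitters' processing notes, with builds GRCm38 and mm10. How genes were filtered before deposit is not stated there. The authors deposited a normalized gene-level signal, per the labels CPM on TMM-scaled library sizes. All 13245 gene IDs matched GENCODE M21, the source of positions and exon lengths. Depth was recovered from the steps of the values: every value was a whole number of read hundredths (tolerance 0.05 of 1 hundredth), so the read numbers given are estimates.

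The test was limma 3.58.1 (R 4.3.3) on log2(CPM + 1), for mean CPM of 1 or more (lmFit, eBayes with a trend, genotype only, two-sided, Benjamini-Hochberg), a script tested on simulated data. Positive values mean higher in CD103Tg. Pair ratios were tested by exact permutation in Python 3.11.15 (numpy 2.4.6, pandas 2.3.3), and figures drawn with matplotlib 3.10.9. Promoter sequences are RefSeq's (GRCm38.p6). Alternatives were other pseudocounts, filters, scalings and variance models, voom, the replicate number as a block, and leaving out libraries. Genes named beside the members are the 3 called genes with the smallest p and the most abundant gene not called in each list, the known genes of granule release, Ctsc and defining markers, except where stated. The members, lists and rules were chosen with earlier results of these data known.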

Additional observations from a re-analysis of the deposited data

How the results depend on the processing

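All 20 alternative fits, which left out libraries, changed the pseudocount, filter, scaling, weights or variance model, blocked on the replicate number or used voom on estimated reads, called the same number of members as reported, 8 higher and 0 lower. A requirement of at least 2-fold left 4 members, all granzymes, of 571 genes called in the whole table, and 6 of the pathway genes higher and 3 lower. Leaving out 1 library at a time gave 2771 to 3583 called genes against 3592, 35 to 44 pathway genes higher and 15 to 21 lower, 8 members higher and 0 lower, and 0 to 8 of the 10 pair differences called. The counts of 0 pairs came without CD103Tg replicate 1, 2 or 4. Without B6 replicate 4 and CD103Tg replicate 4 together, the log2 fold changes of Gzmb, Gzma, Gzmk and Gzmm were 4.14, 2.47, 2.16 and 1.75. Srgn, called under none of the alternatives, ran from -0.119 to 0.062 with 1 library left out and was at 0.02 without B6 replicate 1, 0.062 without B6 replicate 3, 0.00063 without CD103Tg replicate 2 and 0.01 without CD103Tg replicate 3. Gzmk over Gzmm turned to -0.16 with a pseudocount of 5 and was at 0.78 with 0.1. The cause of these shifts was not tested beyond the pseudocount's own effect on low genes.

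The replicate number as a block called 3682 genes and 8 members, with 44 pathway genes higher and 17 lower. Deviations of same-numbered libraries correlated at 0.22, 0.35, -0.08 and 0.12 for numbers 1 to 4. B6 replicates 1 and 2 correlated best with the CD103Tg library of their own number. B6 replicate 3 correlated best with CD103Tg replicate 4 (0.13) and B6 replicate 4 with CD103Tg replicate 3 (0.24). The numbers were therefore not taken as pairs, and whether libraries shared a batch was not tested. Depth limits mainly Gzmc and Ncr1, with 2 to 58 and 9 to 38 estimated reads per library.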

Other observations

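Coding genes within 100000 bases of the members were listed from GENCODE M21, a window chosen after the values were seen, with the members themselves set aside. Around Gzmm, 4 of 5 tested neighbours rose: Cdc34, a ubiquitin-conjugating enzyme gene 622 bases away (0.40 ± 0.08, log2, SE), Bsg, encoding basigin (0.29 ± 0.07), Rnf126 (0.25 ± 0.08) and Tpgs1 (0.22 ± 0.07), while Polrmt did not pass. Around Nkg7 both tested neighbours rose, Etfb, of mitochondrial electron transfer, by 0.59 ± 0.06 and Vsig10l by 1.13 ± 0.17. None of the 12 tested neighbours of Ctsw and none of the 3 of Cst7 passed. Over the 8 members that rose, 7 of 24 tested neighbours rose and 0 fell, where 17.4% and 13.8% of all tested genes did, and no test was made of that count. Apart from Gzma and Gzmk, which are each other's neighbours, no gene near Gzma, Gzmb or Gzmk was tested.

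For likeness, the 8919 genes averaging 5 CPM or more were ranked by Pearson's r of log2(CPM + 1) over the 8 libraries, which share the group difference. Closest to Gzma were Stx11 (r = 0.983), Ada, the adenosine deaminase gene (0.982), and Mrpl41 (0.978). Closest to Gzmb were Hmmr, a gene of the mitotic spindle (0.994), Hipk2 (0.994) and Ly6a, encoding Sca-1 (0.994). Closest to Gzmk were Yars (0.994), Cyfip1 (0.987) and Itgax, the CD11c gene (0.983). The changes of these genes were of very different size, from 0.14 for Yars to 2.94 for Ly6a on the log2 scale. These are descriptions over 8 points, chosen as the highest of many.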
